A study of Mus musculus with 3 samples.

Results

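The cells described here were cluster 11 (C11) of the CD4 T cells, labelled as regulatory T cells and taken by that cluster number from the study's own cell table, leaving out transgenic TEa cells (none of which lay in C11). C11 held 104 of 10371 CD4 cells and of 21204 T cells in all, with 20 cells in the saline group, 25 in the CSA 5 mg/kg group and 59 in the CSA 50 mg/kg group. The recipients were irradiated B6D2F1 mice given allogeneic B6 bone marrow and B6 T cells together with a small number of TEa T cells, which carry 1 transgenic T cell receptor, are CD45.1+ and lack Rag1. All groups shared this transplant and differed in the daily injections from day 0 to day 6, which held saline or cyclosporine (CSA), the latter at 5 mg/kg or at 50 mg/kg (called higher dose CSA). Spleens were taken on day 7 from 6 mice a group and combined 2 by 2, so that each group gave 3 hashtagged pools, and the pool was the replicate. The age of the mice was not given in the sources used here. All 3 pools of a group went through 1 capture, so the capture and the treatment cannot be told apart. The paper describes the sequenced cells as donor T cells. B6 donors and B6D2F1 recipients were both CD45.2+ and CD90.2+, and the stains used for the sort do not separate donor from recipient T cells, so the origin of C11 cells was not determined here.

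Regulatory T cells are CD4 T cells that restrain immune responses, and the transcription factor Foxp3 maintains their programme. They bind interleukin-2 through a receptor whose alpha chain is encoded by Il2ra (CD25), many of them carry the transcription factor Helios (Ikzf2), and after activation they raise Ctla4, Icos and receptors of the tumor necrosis factor family. CSA blocks calcineurin, the phosphatase that lets NFAT factors enter the nucleus after T cell receptor signaling. In allogeneic transplantation regulatory T cells are known for limiting graft-versus-host disease.

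C11 carried the markers its label names. Foxp3 UMIs (unique molecular identifiers, here transcript counts) were found in 84 of 104 C11 cells, which is 80.8%, against 0.204% to 1.67% of cells in the other CD4 clusters and 0.738% of CD8 T cells, most of which lack Foxp3. Of the 3 markers Foxp3, Il2ra and Ikzf2, all 3 were detected in 35 cells, 2 in 42, 1 in 24 and none in 3. The median depth was 3491 UMIs per C11 cell in the saline group, 3907 at 5 mg/kg and 4906 with higher dose CSA, and the other CD4 cells had medians of 3096, 4402 and 6010. 3 of the 104 cells had a barcode that also occurred in another capture, and 3 of the 104, all with higher dose CSA, carried a second hashtag at no less than 0.5 of the strongest.

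After Foxp3, the genes with the highest ratio of C11 to the other CD4 cells were Itgae, Rln3 (46 UMIs in all of C11), Ccr8 and Neb, and those with the lowest were Kif11, Id3, Ccl1 and Cd40lg. As the clusters were made from these same genes, the levels that follow are a description with no test, given in CPM (UMIs of a gene summed over the cells of a group and scaled to a common total). Foxp3 stood at 801 CPM in saline C11, 459 at 5 mg/kg and 524 with higher dose CSA, against 4.47, 2.89 and 1.12 in the other CD4 cells. Itgae, the integrin chain CD103 that binds E-cadherin, followed with 243, 177 and 221 CPM in C11 and no more than 1.99 in any group of the other cells. Ikzf2 was 3.77 higher on the log2 scale in C11 as a mean over the 3 groups, the checkpoint receptor Ctla4 3.31 higher, the killer lectin-like receptor Klrg1 3.21 higher, Il2ra 2.65 higher and Entpd1 (CD39), which degrades extracellular ATP, 2.38 higher. Rln3, Ccr8, Neb, Iigp1, Ecm1, Socs2, Wls, Trat1, Cd74, Gbp3, Tnfrsf1b, Snx9 and P2ry10 completed the 20 genes with the highest ratio. Ccr8, the receptor for the chemokine Ccl1, varied widely over the doses, with 229 CPM in saline C11, 553 at 5 mg/kg and 3.15 with higher dose CSA. The 10 genes lowest in C11, in order, were Kif11, Id3, Ccl1, Cd40lg, Cdk1, Tcf7, Ccna2, Ehd3, Slamf7 and Tacc3, which include 4 genes of cell division (Kif11, Cdk1, Ccna2 and Tacc3), the helper signal Cd40lg and Tcf7, a factor of naive and memory T cells, at 42.9, 10.4 and 12.6 CPM in C11 against 253, 164 and 53.5. The other CD4 cells include clusters of cycling cells, which C2 and C9 are not. Against C2 and C9 alone the mean log2 differences were -0.11 for Kif11, 0.01 for Cdk1, 0.46 for Ccna2, -0.04 for Tacc3 and 0.89 for Ccl1. These rest on very few UMIs in C11, with 0, 1 and 0 of Ccl1 and 0, 1 and 1 of Kif11 over the 3 groups. The ratios add 1 UMI to each sum, which weighs more in the smaller sum of C11. They therefore do not show equal or higher levels in C11. Of the helper cytokines, no UMI of Il2, Il4, Il17a or Il21 was found in C11. Against clusters C2 and C9 alone, 12 of the 20 genes were again in the top 20.

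**Figure D1:**
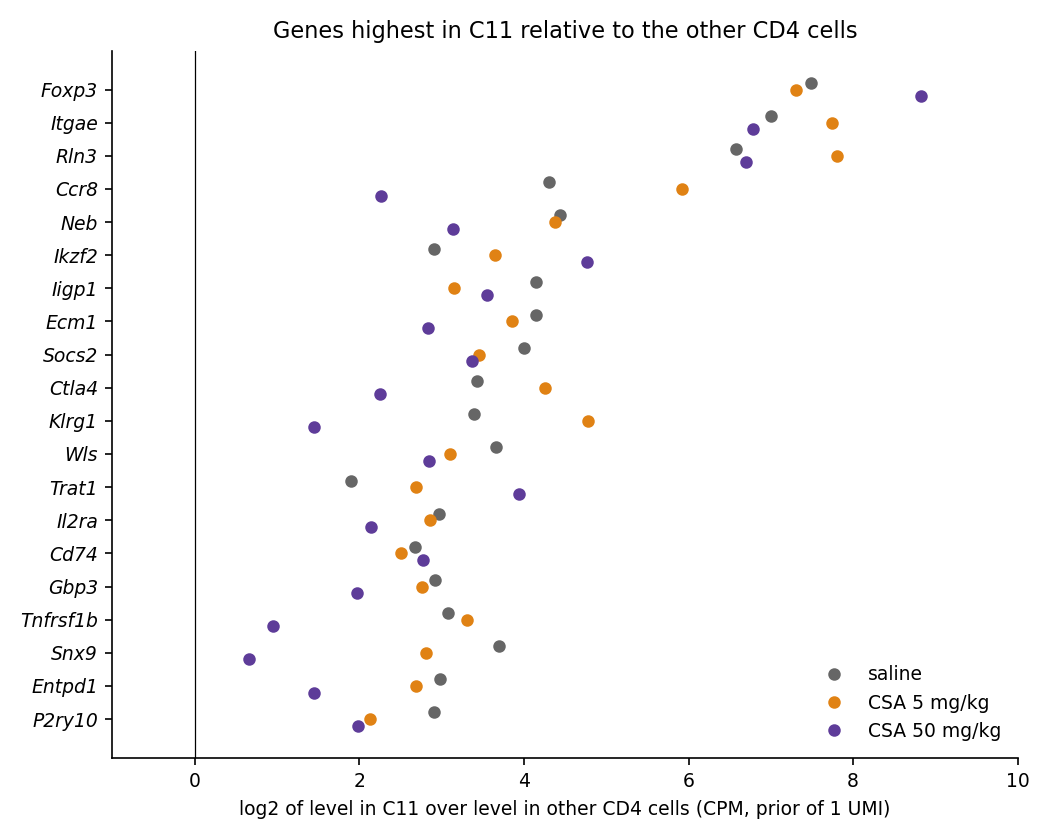
Each row is one of the 20 genes highest in C11 and each point one dose group; the x axis gives the log2 ratio of the level in C11 to that in the other CD4 cells, from summed CPM with a prior of 1 UMI. Foxp3, Itgae and Rln3 lie farthest to the right at every dose, between 6.57 and 8.82, while Ccr8, Klrg1, Tnfrsf1b and Snx9 lie closer to 0 with higher dose CSA than in the other groups.

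C11 took a larger part of the CD4 cells as the dose of CSA rose. Its share was 0.176%, 0.676% and 0.554% in the 3 saline pools, 0.571%, 0.965% and 0.947% at 5 mg/kg, and 1.62%, 2.08% and 2.06% with higher dose CSA. The 3 highest values were those of higher dose CSA and overlapped with no other pool, whereas 1 pool at 5 mg/kg lay inside the saline range. The means were 0.469% ± 0.261, 0.828% ± 0.222 and 1.92% ± 0.261 (SD, n = 3), and the trend over the ordered doses passed an exact two-sided permutation test (Jonckheere-Terpstra, p = 0.00357). A share does not tell more C11 cells from fewer of the others, and cell numbers per spleen were not analysed here.

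Outside C11, few cells held Foxp3, and C11 held only part of its UMIs in the saline and 5 mg/kg groups. With each cell thinned to 2000 UMIs, 0.685%, 0.383% and 0.457% of the other CD4 cells held a Foxp3 UMI in the saline pools, 0.552%, 0.130% and 0.800% at 5 mg/kg, and 0.211%, 0.104% and 0.197% with higher dose CSA. The same share in CD8 T cells was 0.623%, 0.506% and 0.145% as means of the 3 groups, next to 0.508%, 0.494% and 0.171% in the other CD4 cells. Unthinned, the Foxp3 UMIs of the other CD4 cells were 67 in 29 cells in saline, 43 in 28 at 5 mg/kg and 23 in 13 with higher dose CSA, and those of CD8 T cells were 90 in 38, 77 in 32 and 10 in 10, next to 56 in 17, 44 in 21 and 166 in 46 for C11. Some cells with Foxp3 outside C11 thus held more than 1 UMI, but none of the CD8 T cells with higher dose CSA did. Whether the cells with Foxp3 outside C11 were cells that use the gene was not tested. No trend over the doses passed the exact permutation test (p = 0.189), although it did with cells thinned to 1000 UMIs (p = 0.0214). Of the Foxp3 UMIs in the CD4 cells of a pool, C11 held 22.7% to 50.9% in saline and 31.7% to 84% at 5 mg/kg. With higher dose CSA it held 83.8% to 92.8%. Those of CD8 T cells are not part of these percentages. Counted over all CD4 cells regardless of cluster, in an alternative added after the data were seen, the share of cells with Foxp3 was 0.809% ± 0.116, 0.770% ± 0.221 and 1.31% ± 0.172 (SD, n = 3), a trend that did not pass the exact permutation test (p = 0.0738).

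**Figure D2:**
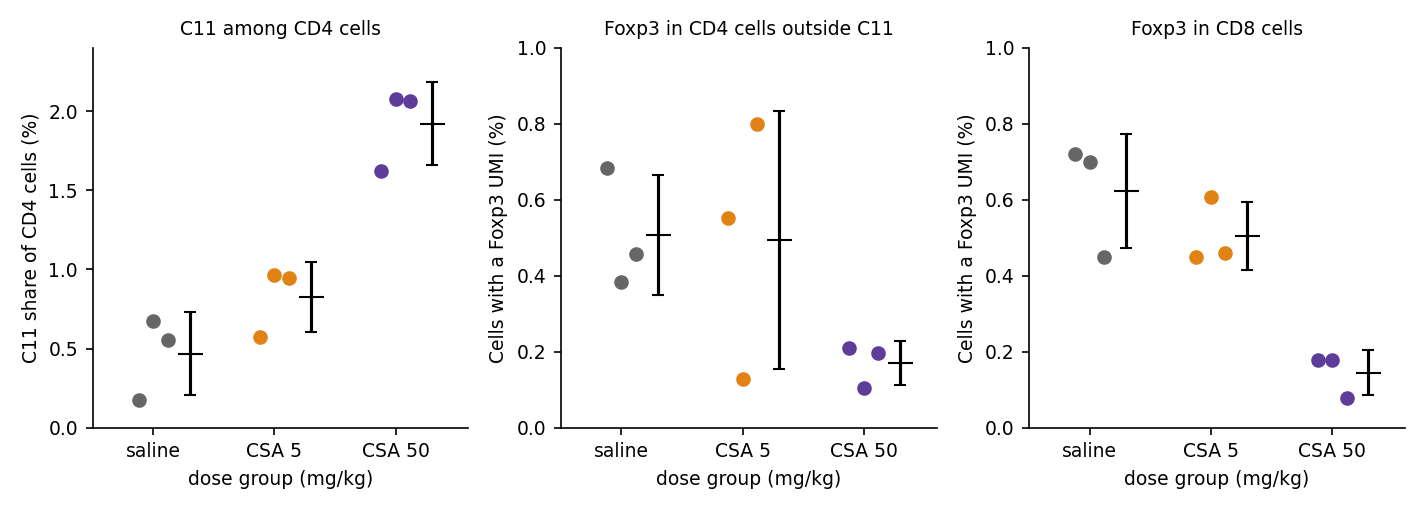
Points are pools of 2 mice, and the bar beside each group is the mean with its SD (n = 3); the y axes give the share of CD4 cells in C11 and the share of cells with a Foxp3 UMI after thinning to 2000 UMIs, outside C11 and in CD8 T cells. The C11 share lies between 1.62% and 2.08% with higher dose CSA, above every other pool, while Foxp3 outside C11 and in CD8 T cells is lowest in that group.

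The T cell receptors of C11 were nearly all seen once. Of 83 C11 cells with a clonotype, that is the CDR3 sequences of a cell's receptor chains (the stretch that varies most and meets the antigen), all 83 were distinct, and none occurred in more than 1 pool. Only 1 of 83, or 1.20% (exact binomial 95% interval 0.0305% to 6.53%), was shared with another CD4 cell of its pool, against 1694 of 7901 other CD4 cells, or 21.4%. Over the 7 pools with at least 3 such C11 cells, the shared part was 20.3 points lower in C11, in the same direction in 7 of 7 pools (exact two-sided sign-flip permutation test, p = 0.0156, the smallest these pools allow). The part in C11 was 0 in the saline and 5 mg/kg groups, and the trend over the doses did not pass (exact permutation test, p = 0.714). Intervals on shares cover counting error only. The single shared clonotype joined a C11 cell with a cell of cluster C0 in pool 3 of higher dose CSA, and used TRBV31.

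V segments of the beta chain were unevenly used in C11. V genes are also among the counted genes, so these shares are a description. Of 73 C11 cells with a beta chain, 16 (21.9%) used TRBV3, against 4.81% of the other CD4 cells, and 12 (16.4%) used TRBV12-1, against 0.768%. These shares rest mostly on higher dose CSA, which gave 49 of the 73 cells. TRBV3 was used by 0 of 11 saline cells, 4 of 13 at 5 mg/kg and 12 of 49 with higher dose CSA. TRBV12-1 was used by 0 of 11 saline cells, 0 of 13 cells at 5 mg/kg and 12 of 49 with higher dose CSA, spread over its 3 pools with 5, 4 and 3 cells. The exact binomial 95% interval ends at 28.5% for 0 of 11 cells and at 24.7% for 0 of 13. Both limits lie above the 24.5% that each of these 2 segments had with higher dose CSA, and the limit for 0 of 13 bears on TRBV12-1 only. For TRBV3 the 4 of 13 cells at 5 mg/kg were 30.8% (interval 9.09% to 61.4%). The cells were few, and whether the groups differ in these segments was not tested. Among the other CD4 cells TRBV12-1 stayed between 0.688% and 0.819% in every group. TRBV5, used by 7.48% of the other CD4 cells, was in 0 of the 73, which allows a share of up to 4.11% (3 cells of 73; the exact binomial 95% interval ends at 4.93%). Whether the TRBV12-1 cells were copies of 1 clone can be read from their beta chain CDR3 sequences, of which 2 from each pool are given, 5′ to 3′, the first in alphabetical order. Capitals mark the bases after the 9 that the 11 cells with a single beta chain have in common:
CSA 50 mg/kg pool 1, TRBJ2-1: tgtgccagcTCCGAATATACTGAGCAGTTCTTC
CSA 50 mg/kg pool 1, TRBJ1-3: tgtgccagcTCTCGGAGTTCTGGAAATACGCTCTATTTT
CSA 50 mg/kg pool 2, TRBJ1-4: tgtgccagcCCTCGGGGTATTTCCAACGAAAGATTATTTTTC
CSA 50 mg/kg pool 2, TRBJ2-3: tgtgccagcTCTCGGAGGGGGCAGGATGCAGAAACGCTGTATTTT
CSA 50 mg/kg pool 3, TRBJ2-7: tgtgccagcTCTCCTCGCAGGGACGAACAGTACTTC
CSA 50 mg/kg pool 3, TRBJ1-1: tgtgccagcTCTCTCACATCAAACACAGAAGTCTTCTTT
All 11 sequences differed and were 33 to 45 bases long, so that no 2 of these cells shared a beta chain. A Foxp3 UMI was found in 8 of the 11.

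**Figure D3:**
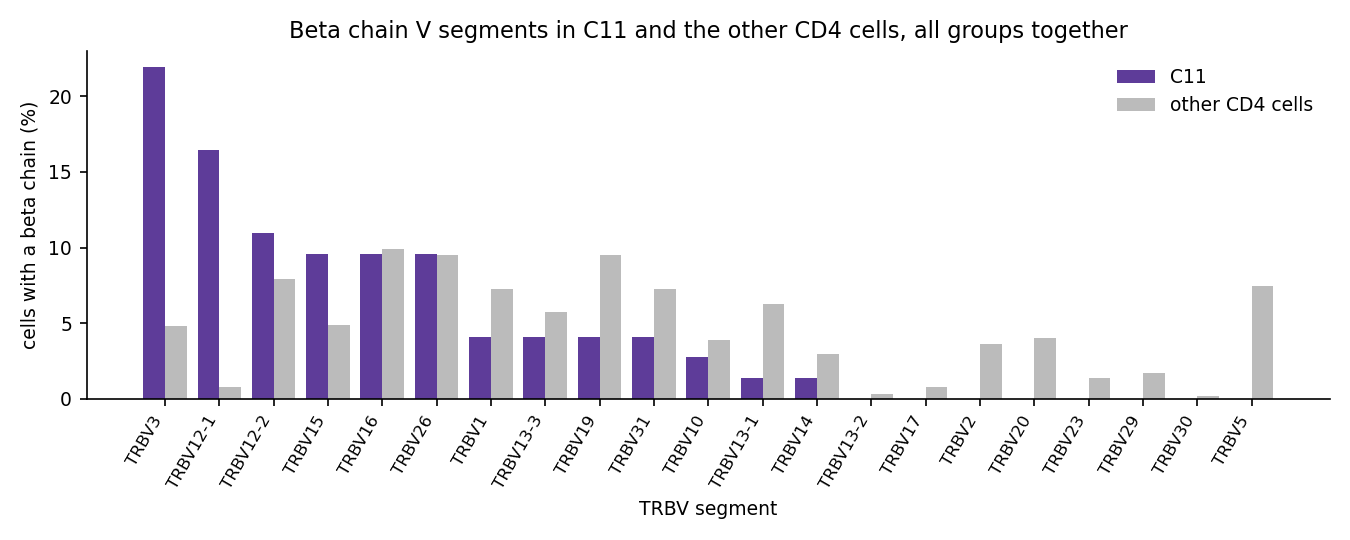
Bars give the percentage of cells with a beta chain that used each TRBV segment, for the 73 C11 cells and for the other CD4 cells, all groups together. TRBV3 and TRBV12-1 are the tallest bars of C11, at 21.9% and 16.4%, and TRBV5 is empty in C11.

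C11 cells gave lower counts of the CD4 surface antibody. The median UMI count of the CD4 antibody per cell was 208 to 316 in the C11 cells of the 8 pools with at least 3 of them and 344 to 535 in the other CD4 cells, lower in C11 in 8 of 8 pools, by a mean of -0.63 ± 0.20 on the log2 scale (SD, n = 8; exact two-sided sign-flip permutation test, p = 0.0078, the smallest 8 pools allow). This comparison was chosen after its values were seen. The CD45.1 antibody, which marks TEa cells, stood at medians of 1 to 8 UMIs in both. It was lower in C11 in 5 of 8 pools and higher in 1, by a mean of -0.26 ± 0.34 on the log2 scale (SD, n = 8), which did not pass (exact two-sided sign-flip permutation test, p = 0.094). Antibody counts were not scaled here to the total antibody count of a cell.

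The question for gene expression was how CSA changed C11 itself. UMIs were summed over the C11 cells of each pool and compared with the quasi-likelihood test of edgeR, the source of all changes (log2, ± SE) and adjusted p-values (Benjamini-Hochberg) that follow. Pools with at least 3 C11 cells entered, so saline had n = 2 (its pool 1 held only 2 C11 cells and was left out), and each CSA group n = 3. Of 877 tested genes, higher dose CSA changed 307, or 35%, with 133 higher (15.2%) and 174 lower (19.8%). At 5 mg/kg 66 genes changed, or 7.53%, with 38 higher (4.33%) and 28 lower (3.19%). Scaled by library size in place of TMM, the higher genes fell from 43.3% to 31.3% of those called with higher dose CSA, and from 57.6% to 46.2% at 5 mg/kg, as that scaling lowered the median log2 change of all genes by 0.149 and 0.0882. A gene passes the low-count filter through the group where it is high, so the counts of list members below cover only those that passed. Cells were placed in C11 by clustering on their RNA, marker genes such as Foxp3, Il2ra and Ikzf2 included. Changes of these genes hold for the cells so placed, and how the placement bears on them was not tested.

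Genes that define regulatory T cells were mostly lower with higher dose CSA. From a list of 21 identity genes 9 could be tested, and 7 of them fell (Foxp3, Il2ra, Ikzf2, Ctla4, Tnfrsf4, Izumo1r and Il2rb), 1 rose (Capg, an actin-capping protein gene, whose call was lost in 9 of 18 alternatives) and Tnfrsf18 did not pass, beside the 19.8% of all tested genes that fell. The median log2 change of the 9 was -2.05, beside 0.02 over all tested genes. Among the 12 with too few UMIs, Lrrc32 (GARP, which holds latent TGF-beta) had 7, 3 and 8 UMIs over the 3 groups, Ikzf4 (Eos) 6, 3 and 9, Nrp1 (neuropilin-1) 1, 2 and 19 and Plagl1 none. At 5 mg/kg 0 of the 9 were called, beside 7.53% of all tested genes, a share at which fewer than 1 of 9 genes would be called. Ctla4 was at 846 and 1582 CPM in the 2 saline pools, 1265, 1528 and 2159.8 at 5 mg/kg, and 309, 193 and 331 with higher dose CSA. The higher dose pools lay below all others, and Ctla4 fell by 2.21 ± 0.32 on the log2 scale against saline (adjusted p = 2.7e-05). Tnfrsf4 (OX40), a costimulatory receptor, stood at 1579 and 1619.5 CPM in saline, 1778 to 2639.7 at 5 mg/kg and 257 to 290.2 with higher dose CSA, where it fell by 2.64 ± 0.23 (adjusted p = 6e-08). Both calls held in all 18 alternative settings.

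Ikzf2 fell with higher dose CSA but, in the cells placed in C11, lay far above the other CD4 cells. It was at 705 and 866 CPM in saline, 715, 722 and 768 at 5 mg/kg and 273, 242 and 193 with higher dose CSA, and fell by 1.83 ± 0.29 (adjusted p = 6.3e-05). In the other CD4 cells Ikzf2 went from 119 and 115 CPM in the same saline pools to 7.89, 7.09 and 10.7. Izumo1r, the folate receptor 4, had 32 UMIs in saline C11, 48 at 5 mg/kg and 2 with higher dose CSA, a ratio of saline to higher dose CSA of 72.6 (counting interval 18.5 to 625, adjusted p = 6e-06).

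The interleukin-2 receptor chains went down together with higher dose CSA. Il2ra was at 338 and 1243 CPM in saline, 220.1, 889 and 216 at 5 mg/kg and 119, 161 and 193 with higher dose CSA. These pools were all below the lowest of the other groups, but the saline pools were wide apart. Il2ra fell by 2.31 ± 0.51 (adjusted p = 0.0016), whereas without saline pool 3 its change was -1.09 and did not pass (adjusted p = 0.21), nor did it in pools of at least 10 cells (-0.85, adjusted p = 0.25). Il2rb, the beta chain shared with the interleukin-15 receptor, fell by 2.05 ± 0.38 (adjusted p = 0.00034, and 0.054 in pools of at least 10 cells), and Il2rg, the common gamma chain, by 0.63 ± 0.19 (adjusted p = 0.015, not past the threshold without saline pool 2 or pool 3). Among 8 tested genes of interleukin-2 and STAT5 signaling 4 were lower (Il2ra, Il2rb, Il2rg and Jak1, the last lost in 9 of 17 alternatives, among them those without saline pool 2 or 3 and CSA 50 mg/kg pool 1 or 2), beside 19.8% of all tested genes, and 4 did not pass, among them the STAT5 targets Cish and Socs2. Pim1, another STAT5 target, was at 367 and 489.6 CPM in saline and 478 to 532 with higher dose CSA (log2 change 0.14 ± 0.30, adjusted p = 0.75).

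Among the cells placed in C11, Foxp3 itself changed little, and the call on it was fragile. It stood at 649 and 1055 CPM in saline, 550.2, 583 and 312 at 5 mg/kg and 475, 516 and 570.0 with higher dose CSA. The higher dose pools lay below both saline pools and inside the range at 5 mg/kg. It fell by 0.78 ± 0.29 (adjusted p = 0.042), a call lost in 10 of 18 alternatives, among them those without saline pool 2 or 3, CSA 5 mg/kg pool 2 and CSA 50 mg/kg pool 1 or 2, and the change was -0.09 in pools of at least 10 cells (adjusted p = 0.87). Itgae, too sparse to be tested, had 197 and 377 CPM in saline, 144 to 220.1 at 5 mg/kg and 193 to 249.5 with higher dose CSA, with overlap of all groups.

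**Figure D4:**
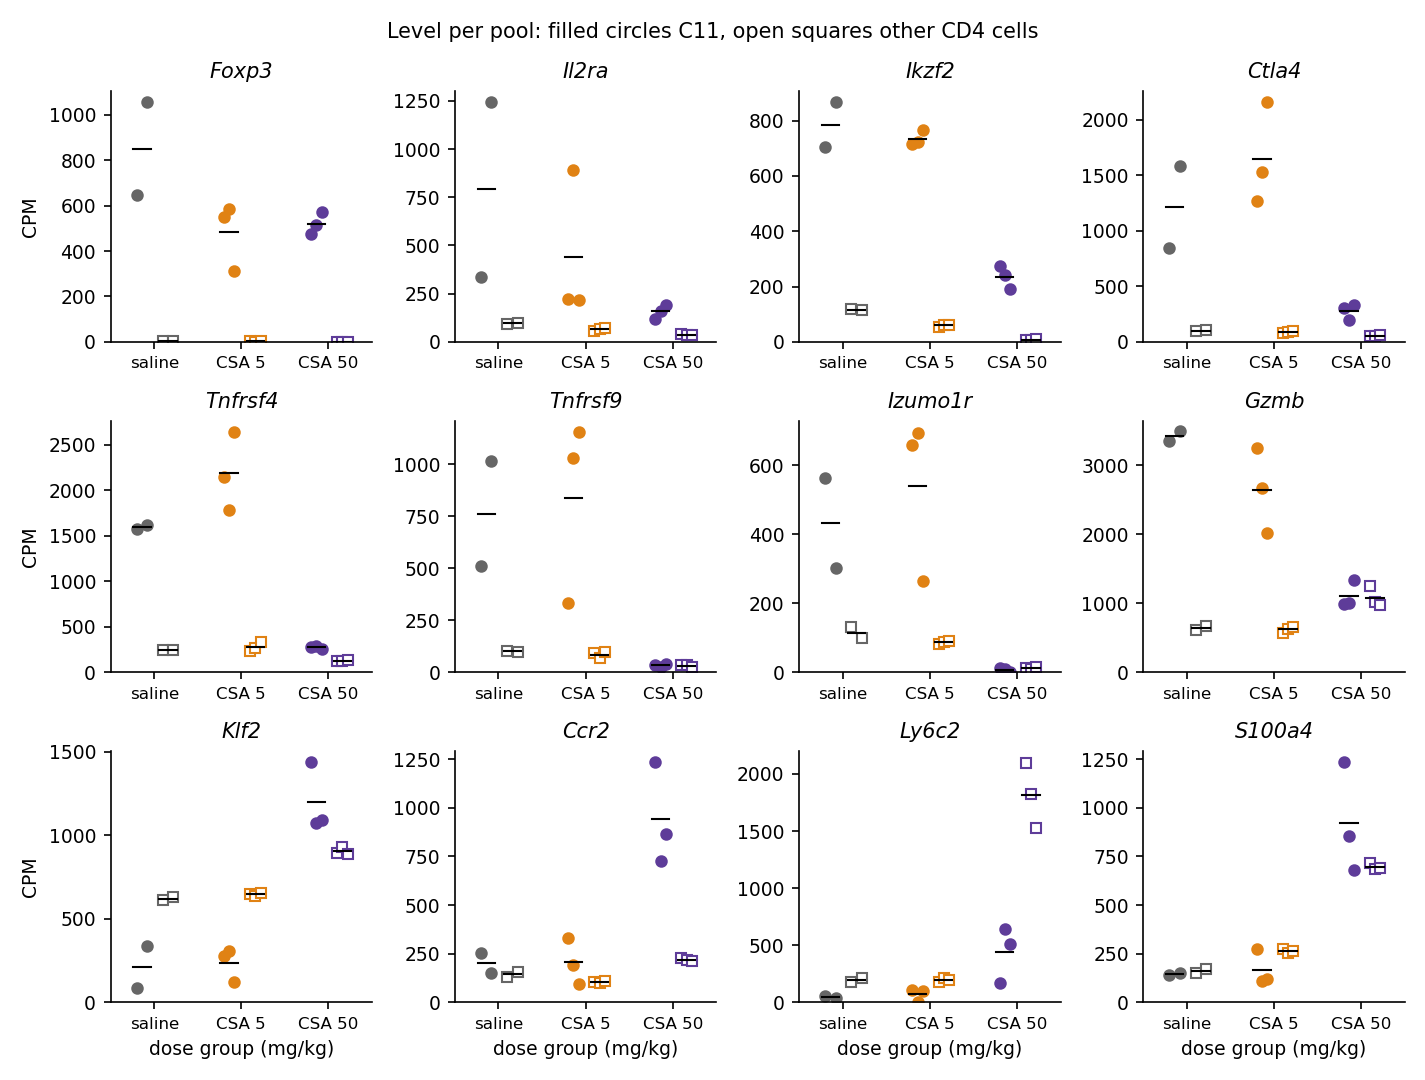
Each panel is a gene, the y axis its level in CPM from 0 and the x axis the dose group; filled circles are C11 and open squares the other CD4 cells of the same pools (n = 2, 3 and 3), with a line at the mean. In C11, Ctla4, Tnfrsf4, Tnfrsf9 and Izumo1r drop between 5 and 50 mg/kg, Klf2, Ccr2 and S100a4 rise there, and Foxp3 stays between 312 and 583 CPM in both CSA groups.

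Genes of activated, tissue-directed regulatory T cells were lower as well. Of 11 tested members of that list 8 fell with higher dose CSA (Icos, Tigit, Tnfrsf9, Tnfrsf1b, Ccr8, Cxcr3, Maf and Lag3), 1 rose (Ccr2) and Batf and Klrg1 did not pass, beside 19.8% of all tested genes lower and 15.2% higher. At 5 mg/kg 0 of the 11 were called, again beside 7.53% of all tested genes. Tnfrsf9 (4-1BB), which marks recently stimulated regulatory T cells, was at 508 and 1017 CPM in saline, 330.1, 1028 and 1152 at 5 mg/kg and 35.6, 24.2 and 36.8 with higher dose CSA. It fell by 4.56 ± 0.51 (adjusted p = 1.4e-06), to a level near that of the other CD4 cells, which was 25 to 34.7 CPM. Tnfrsf1b, the tumor necrosis factor receptor 2 that supports these cells, went from 592 and 829 CPM to 71.3, 40.3 and 27.6, where it fell by 4.02 ± 0.40 (adjusted p = 3.9e-07). The inhibitory receptor Lag3 had 21, 45 and 1 UMIs over the 3 groups, a saline to higher dose ratio of 95.3 (counting interval 15.3 to 3939). Ccr8 had 16, 53 and 1 UMIs, a ratio of 72.6 (counting interval 11.3 to 3043). Pdcd1, encoding PD-1 and too sparse to be tested, had 13, 11 and 0 UMIs, and was at least 19.7-fold lower with higher dose CSA than in saline, taking a floor of 3 counts over the group.

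Icos, the costimulator, fell by 2.03 ± 0.35 (adjusted p = 0.00022), from 677 and 866 CPM to 190.1, 137 and 276. Tigit fell by 1.91 ± 0.40 (adjusted p = 0.0011), a call lost without saline pool 2 (adjusted p = 0.12). Maf, a factor for interleukin-10 expression, and the chemokine receptor Cxcr3 fell by 1.31 ± 0.46 (adjusted p = 0.032) and 0.98 ± 0.37 (adjusted p = 0.042). The Maf call was lost without saline pool 2 or 3 and without CSA 50 mg/kg pool 1 or 2, and that on Cxcr3 without saline pool 3, CSA 5 mg/kg pool 1 or CSA 50 mg/kg pool 2, while in pools of at least 10 cells Cxcr3 was 0.072 higher. Klrg1 varied widely between pools, from 37.7 to 1045 CPM over the saline and 5 mg/kg groups and from 257 to 629.8 with higher dose CSA.

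Of 9 tested effector and cytotoxic genes, some of which activated regulatory T cells also use, 4 fell with higher dose CSA (Gzma, Gzmb, Nkg7 and Ccl4), 2 rose (Ly6c1 and Ly6c2) and 3 did not pass (Ccl5, Klrg1 and Id2), beside 19.8% of all tested genes lower and 15.2% higher. Gzmb (granzyme B) was at 3356 and 3503 CPM in saline, 3246, 2667 and 2016 at 5 mg/kg and 986, 1008 and 1342 with higher dose CSA. It fell by 1.72 ± 0.19 (adjusted p = 9.4e-07), whereas in the other CD4 cells of these pools it went from 617 and 676 CPM to 1252, 1014 and 974. Gzma fell by 4.55 ± 0.67 (adjusted p = 3.3e-05) and Nkg7, a granule protein gene, by 2.25 ± 0.35 (adjusted p = 6.3e-05). Ccl4, a chemokine, had 27, 116 and 1 UMIs, but 1 pool at 5 mg/kg gave 2592 CPM and the others there 55 and 194, and its call against saline was lost without saline pool 2 (adjusted p = 0.38). Lgals1 (galectin-1) rose instead, from 2397 and 2787 CPM to 5347, 5498 and 4937 (0.92 ± 0.18, adjusted p = 0.0006). Il10 was sparse, with 4, 21 and 1 UMIs, of which 1 pool at 5 mg/kg (408 CPM) held most.

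Of 4 tested genes known from circulating and less activated T cells, 1 rose with higher dose CSA (Klf2), 2 fell (Cd27 and Il7r) and S1pr1 did not pass. Over all tested genes 15.2% were higher and 19.8% lower. Klf2, the factor that drives the egress receptor S1pr1 and keeps T cells quiet, went from 84.6 and 339 CPM in saline and 275, 306 and 120.0 at 5 mg/kg to 1438, 1072 and 1094, a rise of 2.49 ± 0.40 (adjusted p = 8.7e-05). Counted by cell, Klf2 without Tnfrsf9 was detected in 2 of 20 saline cells, 1 of 25 at 5 mg/kg and 51 of 59 with higher dose CSA, Tnfrsf9 without Klf2 in 11, 11 and 0, and both in 5, 10 and 6. S1pr1 was at 28.2 and 264 CPM in saline and 309, 234 and 368 with higher dose CSA, which did not pass against saline (1.09 ± 0.62, adjusted p = 0.18) and passed against 5 mg/kg (1.84 ± 0.57, adjusted p = 0.027), though not without CSA 5 mg/kg pool 1 or pool 3. Cd27 fell by 2.90 ± 0.53 (adjusted p = 0.00031) although not without saline pool 2 (adjusted p = 0.12). The call on Il7r (-1.02 ± 0.38, adjusted p = 0.043) was lost in 11 of 18 alternatives.

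Ccr2, a receptor for inflammatory chemokines, rose by 2.03 ± 0.41 (adjusted p = 0.00075), from 254 and 151 CPM to 1236, 725 and 864, above every pool of the other groups. Ly6c1 had 0, 1 and 99 UMIs in the 3 groups and was at least 7.28-fold higher with higher dose CSA than in saline, and Ly6c2, also of the effector list, had 3, 6 and 150 UMIs, a ratio of 11 (counting interval 3.7 to 54.1). The calcium-binding S100a4, S100a6 and S100a10 rose by 2.52 ± 0.43, 2.19 ± 0.18 and 2.20 ± 0.21, and the LIM protein gene Crip1 by 2.84 ± 0.20, the call with the smallest adjusted p of the comparison (6.1e-09). Ly6c1 and Ly6c2 are near copies of each other, as are many histone and ribosomal protein genes, and how reads were split between copies is not given in the sources used here. S100a4 was at 141 and 151 CPM in saline, 275, 111 and 120.0 at 5 mg/kg and 1236, 854 and 680.3 with higher dose CSA. Of 9 homing genes tested 3 rose (Ccr2, Itgb7 and Selplg, the integrin chain of gut homing and an adhesion ligand), 3 fell (Cxcr3, Ccr8 and Itga4) and 3 did not pass, beside 15.2% of all tested genes higher and 19.8% lower. The call on Selplg was lost in 6 of 18 alternatives and that on Itgb7 in 3. Both were lost without saline pool 2, and Selplg also without CSA 50 mg/kg pool 2.

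Among 24 genes induced by the T cell receptor only 5 were testable, of which Nfkbia and Tnfrsf9 fell with higher dose CSA and Nr4a1, Cd5 and Cd6 did not pass. Over all tested genes 19.8% fell. Nfkbia, an NF-kB target, fell by 2.74 ± 0.42 (adjusted p = 5.8e-05). Outside that list, Malt1, which links the receptor to NF-kB, fell by 3.43 ± 0.63 (adjusted p = 0.00034), Hif1a, the hypoxia factor that drives glycolysis, by 2.59 ± 0.35 (adjusted p = 1.6e-05) and Odc1, which starts polyamine synthesis, by 3.86 ± 0.45 (adjusted p = 2.1e-06). Odc1 was at 705 and 527 CPM in saline, 165, 333 and 288 at 5 mg/kg and 71.3, 40.3 and 27.6 with higher dose CSA. Of the calcineurin and NFAT list 4 of 19 were tested and 1 rose, beside 15.2% of all tested genes. It was Fkbp1a, the tacrolimus-binding protein (0.99 ± 0.36, adjusted p = 0.039, lost in 11 of 18 alternatives). Ppia, which encodes the protein that CSA binds, did not pass (0.11 ± 0.18, adjusted p = 0.66).

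Cell division transcripts were lower in C11 than in the other CD4 cells, and lowest with higher dose CSA. The other CD4 cells include the clusters in which cycling cells were placed, so a lower level in C11 follows in part from the clustering. The summed level of 20 cycling genes was 3126 to 4569 CPM in the saline pools, 2861 to 3362 at 5 mg/kg and 1161 to 1241 with higher dose CSA, and 5414 to 6978 in the other CD4 cells of any pool. Mki67 fell by 3.64 ± 0.92 (adjusted p = 0.0042, lost without saline pool 2) and Hmgb2 by 1.39 ± 0.26 (adjusted p = 0.00035, lost without saline pool 2), and Stmn1 and Tubb5 did not pass. The replication histones Hist1h1b and Hist1h4d fell by 4.51 ± 0.36 and 3.61 ± 0.42. By contrast 8 of 30 tested genes of oxidative phosphorylation rose (among them Uqcrh, 1.57 ± 0.34, adjusted p = 0.0013, and Atp5l, 1.22 ± 0.32, adjusted p = 0.0057) and 0 fell, beside the 15.2% of all tested genes that rose. The median log2 change of the 30 was 0.68 with higher dose CSA, 0.72 at 5 mg/kg and -0.06 between the doses. At 5 mg/kg 0 of the 30 were called, beside 7.53% of all tested genes. Of 8 glycolysis genes 2 fell (Aldoa and Hif1a) and 6 did not pass, near the 19.8% of all tested genes that fell.

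Among called genes with at least 30 UMIs and no overlap of pools, the 10 largest rises at 5 mg/kg included 5 ribosomal protein genes. Rpl41 was at 1664 and 1733 CPM in saline and 5282, 4556 and 5135 at 5 mg/kg (1.44 ± 0.16, adjusted p = 2.1e-05), and Rpl37, Rpl38, Rpl39 and Rps28 rose by 1.47 to 1.68. The other CD4 cells of the same pools had 2373 and 2307 CPM of Rpl41 in saline and 5173 to 5393 at 5 mg/kg. Ldha, the lactate dehydrogenase gene, rose by 0.78 ± 0.23 (adjusted p = 0.039) and Hif1a fell by 1.26 ± 0.37 (adjusted p = 0.04). Without saline pool 2 only 8 of the 66 calls at 5 mg/kg were left, with Rpl37, Rpl38, Rpl39 and Rpl41 among them. Between the doses, 164 genes (18.7%) differed, with 71 higher (8.1%) and 93 lower (10.6%) with higher dose CSA. Tnfrsf18 (GITR) was among them, falling by 1.39 ± 0.30 (adjusted p = 0.002), and 7 of the 9 identity genes were lower in that comparison.

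Most genes that changed in C11 were also called in the other CD4 cells of the same pools, where 766 of the 877 tested genes were called. Of the 307 genes that changed in C11 with higher dose CSA, 282 were called in the same direction in the other CD4 cells, 11 in the opposite direction and 14 not at all, in cells of far greater number. The test of dose by cell class, with the pool as a block, called 57 of 877 genes (6.5%) at 50 mg/kg, 26 with the greater value in C11 (2.96%) and 31 with the lower (3.53%). The other CD4 cells are a mix of clusters that shifted with dose. C4 went from 733 cells in saline to 45 with higher dose CSA, and C3 from 180 to 541. Their summed change therefore holds this shift and any change within clusters, which were not told apart. Gzmb differed most clearly, with a change 2.34 ± 0.23 lower in C11 than in the other cells (adjusted p = 8.5e-08). For Nkg7 the change was lower by 2.17 ± 0.34 (adjusted p = 0.00019), for Tnfrsf4 by 1.57 ± 0.25 (adjusted p = 0.00019) and for Odc1 by 2.99 ± 0.48 (adjusted p = 0.00019). Emb, an immunoglobulin-family adhesion protein, was at 28.2 and 113 CPM in saline C11 and 368, 339 and 524 with higher dose CSA, while the other cells went from 366 and 404 to 206, 224 and 216 (difference 3.49 ± 0.58, adjusted p = 0.00025). Itgb1, the beta-1 integrin chain, did not pass in C11 alone but fell in the other cells from 1126 and 1069 CPM to 326, 282 and 309 (difference 2.39 ± 0.38, adjusted p = 0.00019). Ikzf2 fell less in C11 than outside it (difference 2.06 ± 0.47, adjusted p = 0.0073), and Klf2 rose more (2.07 ± 0.41, adjusted p = 0.0015). As a marker of C11, Ikzf2 also bears on which cells lie in it, so a cell with little Ikzf2 may lie outside. How far this enters the difference was not tested.

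Leaving out saline pool 2 reduced these 57 calls to 13, of which 12 were among the 57, and Emb, Itgb1, Gzmb, Nkg7, Odc1 and Tnfrsf4 kept theirs in all 11 alternatives. Klf2 and Ikzf2 did not pass without saline pool 2, nor did Ikzf2 without saline pool 3. For Foxp3, Il2ra and Icos the difference of the changes did not pass (1.36 ± 1.05, -0.79 ± 0.59 and -0.08 ± 0.32). At 5 mg/kg 0 of 877 genes (0%) passed the same edgeR test, 50 genes had an unadjusted p under 0.05, and the fit with no low-count filter called 1.

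**Figure D5:**
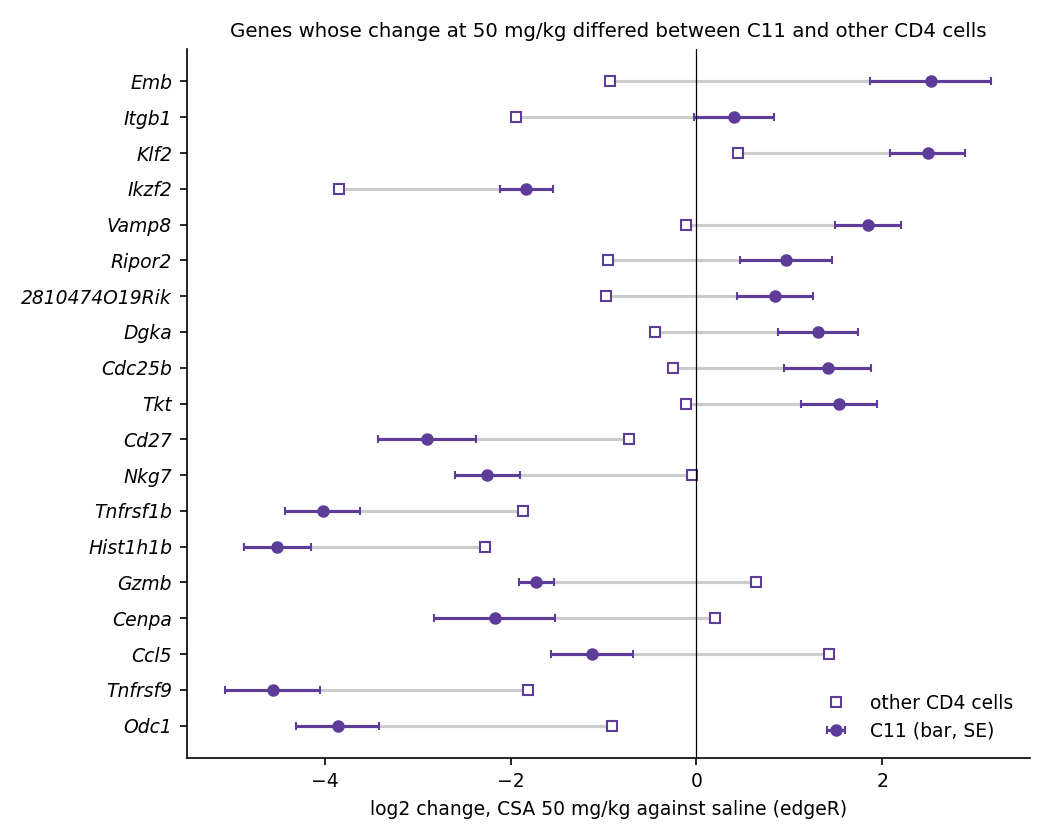
The 19 genes named by the test of the difference at 50 mg/kg, with the log2 change against saline on the x axis; filled circles are C11 with the SE, open squares the other CD4 cells. Emb and Klf2 lie at 2.52 and 2.49 in C11, Emb below 0 in the other cells, and Gzmb lies at -1.72 in C11 and 0.64 in the other cells.

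Genes of other cell types were absent, low or above the other CD4 cells in C11, depending on the list. The B cell genes Ms4a1, Pax5 and Iglc2 were at 0 in every group. Cd79a and Ebf1 were at 0 in saline and at 5 mg/kg but were detected with higher dose CSA. The summed level of 8 B cell genes was 423 to 927 CPM in C11 pools and 174 to 293 in the other CD4 cells. In C11 nearly all of it came from Ighm (40, 45 and 213 UMIs over the 3 groups). Cd8a was at 0 in every group, while Cd8b1, the other gene of the CD8 list, had 9, 17 and 13 UMIs, or 129, 177 and 41.0 CPM against 147, 91.2 and 23.0 in the other CD4 cells. The myeloid genes came to 428 to 1195 CPM in C11 and 442 to 647 in the other cells, with only Cd14 of the 13 genes at 0 in every group. The part of the B cell, CD8 and myeloid transcripts in the results was not tested. Erythroid and platelet lists came to no more than 48 and 27.8 CPM in any pool. The 13 stress and dissociation genes gave 3457 to 5543 CPM in C11, with overlap between the groups. The NK, gamma delta and innate lymphoid genes stayed at or under 37.7 CPM in every C11 pool. Of the Th17 genes Il17a, Il17f, Il23r and Il1r1 were at 0 in C11, and Rora, also a gene of activated regulatory T cells, gave 4, 8 and 43 of the UMIs.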

How the data were processed

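T cells sorted from pooled spleens were captured with 10x Chromium 5' v2 chemistry, 1 capture per group, with hashtags for the pools, and the deposited UMI counts per gene and cell, cluster numbers and clonotypes were made by the authors, whose processing notes name Cell Ranger, Seurat 3.0.0 and mm10 without parameters. The deposited mitochondrial share is a fraction of a cell's UMIs, and the deposited module scores were made by the authors and enter no comparison. Doublets were not called anew; cells with 2 strong hashtags were left out in an alternative. C11 is the authors' cluster 11 without TEa cells, and its 69886, 95841 and 316986 UMIs (saline, 5 and 50 mg/kg) set the precision.

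Counts were summed over the C11 cells of each pool with at least 3 of them (saline n = 2, CSA n = 3 and 3). Changes came from edgeR 4.0.16 in R 4.3.3 (filterByExpr, TMM, glmQLFit and glmQLFTest on all 3 groups, adjusted p-values by Benjamini-Hochberg over 877 genes, threshold 0.05). SE is the change divided by the square root of F. Shares were tested by exact permutation over pools (scipy 1.17.1). The means of pools are of separate mice, 2 to a pool. Genes named are those of lists for regulatory T cells and their pathways, the 20 highest and 10 lowest in C11, and up to 10 per direction in each comparison among called genes with at least 30 UMIs and no overlap of pools. Members and lists were chosen with earlier results of these data known. Against a group with no UMI, a fold is a bound from a floor of 3 counts. On simulated counts for 727 genes of the higher dose comparison, 54.9% of changes of log2 size 1 and 94.4% of size 2 were called, and 3.73% of calls were false. These counts had the spread fitted for genes of similar level, with none particular to a gene. The shares need not hold for the data. Alternatives were no filter, library size scaling, DESeq2 1.42.0, 2 groups only, pools from 10 cells, a hashtag number block, cells from 2000 UMIs, thinning, and leaving out each pool. A few genes are not reported here and were left out of the lists.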

Additional observations from a re-analysis of the deposited data

Results flagged for a closer look

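57 genes stood out because their change with higher dose CSA differed between C11 and the other CD4 cells of the same pools, by the edgeR test of dose and cell class. The values are the log2 change in C11 minus that in the other cells, whose mix of clusters also shifted with dose. The greater values in C11 were 3.49 for Emb, 2.39 for Itgb1, 2.07 for Klf2, 2.06 for Ikzf2, 2.00 for Vamp8 (vesicle fusion), 1.95 for Ripor2, 1.84 for 2810474O19Rik, 1.79 for Dgka (which removes diacylglycerol after receptor signaling), 1.71 for Cdc25b and 1.68 for Tkt. The lower values were -2.99 for Odc1, -2.80 for Tnfrsf9, -2.55 for Ccl5, -2.40 for Cenpa, -2.34 for Gzmb, -2.26 for Hist1h1b, -2.20 for Tnfrsf1b, -2.17 for Nkg7 and -2.17 for Cd27. Of these 19, Emb, Itgb1, Odc1, Gzmb, Hist1h1b and Nkg7 passed in all 11 alternatives and Tnfrsf9 in all but those without saline pool 3 and with pools of at least 10 cells. The other 12 did not pass without saline pool 2.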

How the results depend on the processing

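Both saline pools that entered were small, and the cause of each shift given here was not tested. At 5 mg/kg, 32 genes were called with pools of at least 10 cells, 24 with cells thinned to 2000 UMIs, 40 with DESeq2 and 8 to 71 on leaving out 1 pool (8 without saline pool 2, 38 without saline pool 3, 39 without CSA 5 mg/kg pool 2). The number of genes changed in C11 at 50 mg/kg was 478 with no filter, 468 with only the 2 groups, 126 thinned, 194 with DESeq2 and 179 to 331 without 1 pool (179 without saline pool 2). Between the doses they were 328 with no filter, 75 thinned, 98 with DESeq2 and 114 to 206 without 1 pool. The genes whose change differed between C11 and the other cells numbered 13 to 71 without 1 pool at 50 mg/kg (13 without saline pool 2), and 1 at 5 mg/kg with no filter. With saline pool 1 included, 89, 261 and 146 genes were called at 5 mg/kg, at 50 mg/kg and between the doses. The pools share only a hashtag number across groups, and with that number as a replicate block the counts were 44, 265 and 146.

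The C11 share rose by 1.31 to 1.60 points without 1 pool, and its trend passed in every alternative run. The Foxp3 share outside C11 changed by -0.245 points with cells thinned to 1000 UMIs (exact permutation test, p = 0.0214), and over all CD4 cells by 0.426 to 0.594 without 1 pool (p = 0.0286, exact, without CSA 5 mg/kg pool 1). Clonotype sharing was lower in C11 by -22.3 points in pools with at least 10 such cells (exact p = 0.25, the smallest possible) and by -21.7 to -18.9 without 1 pool; its trend over doses was not run in those pools, which are of 1 group. Against C2 and C9 alone 12 of the 20 genes highest in C11 were again among the top 20. Signs turned, all without passing the test, for Ikzf2 at 5 mg/kg (0.11 with no filter, 0.22 in pools of at least 10 cells), Il2ra at 5 mg/kg (-1.90 to 0.37 without 1 pool), Il2rg at 50 mg/kg with no filter (0.078), Cxcr3 at 50 mg/kg in pools of at least 10 cells (0.072) and Foxp3 between the doses (-0.13 to 0.45 without 1 pool). Of 2326 alternative values of single genes, 2051 kept direction and side of the threshold, 269 lost the call in the same direction and 6 turned sign.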

Other observations

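Ccl5, a chemokine of effector T cells, stood at 1467 and 1055 CPM in saline C11 and at 202, 548 and 1094 with higher dose CSA (log2 change -1.12, adjusted p = 0.051), while the other CD4 cells went from 956 and 992 CPM to 3050.4, 2762 and 2555. Helper cytokines were rare in C11 over the 3 groups, with 1, 1 and 2 UMIs of Ifng and 5, 5 and 0 of Tnf.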
